A study of Mus musculus with 48 samples.

Results

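The 8 genes followed here are the Trem family receptors Trem1, Trem2, Trem3, Treml1, Treml2 and Treml4 and the adaptors Tyrobp and Hcst. They were taken by symbol, as 8 of the 35870 gene rows of the deposited count table. All 8 were present in the table, under Entrez identifiers 58217 (Trem1), 83433 (Trem2), 58218 (Trem3), 71326 (Treml1), 328833 (Treml2), 224840 (Treml4), 22177 (Tyrobp) and 23900 (Hcst). The study sequenced polyA RNA of 48 libraries from wild-type male C57BL/6 mice, 8 in each of 6 groups. The old repopulated groups were 23 months old and had been given an inhibitor for 5 days against Csf1r, a growth factor receptor on which microglia depend, and then had 7 days of recovery. The old groups were also 23 months old and received vehicle, and the young groups were 3 months old and received vehicle. Each of these 3 conditions was sampled as brain microglia, sorted by flow cytometry for surface Cd11b and Cd45, and as whole spinal cord that was not dissociated. The mice were perfused with saline before dissection. Cd11b and Cd45 are also carried by blood myeloid cells, so the gate does not separate these from microglia. The labels do not say whether libraries of 1 group came from separate animals, so the p-values below measure the spread between libraries.

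Receptors of the Trem family are single-pass membrane proteins of myeloid cells with 1 immunoglobulin-type domain outside the cell. Several have no signalling tail of their own and rely on Tyrobp (also called DAP12), an adaptor that brings in the kinase Syk, while Hcst (DAP10) brings in phosphoinositide 3-kinase. In the brain Trem2 is a microglial receptor for lipids and lipoproteins, known for its part in the response of microglia to lipid debris and amyloid, and Trem1 is best known from neutrophils and monocytes, where it amplifies inflammatory signals.

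The genes lie in a pair of small clusters of the GRCm38 mouse genome. All 6 receptor genes lie on the plus strand within 134 kb of chromosome 17, in the order Trem1 (chr17:48232768-48246924), Trem3 (chr17:48247777-48258841), Treml4 (chr17:48264295-48275360), Treml2 (chr17:48299498-48312533), Trem2 (chr17:48346401-48354147) and Treml1 (chr17:48359916-48367176). Both adaptor genes lie on chromosome 7 and point toward each other, Tyrobp on the plus strand (chr7:30413760-30417585) and Hcst on the minus strand (chr7:30417712-30419854), with 126 bases between them. Trem1 overlaps an annotated pseudogene, AC241601.2. The library kit does not mark strand, so reads of overlapping genes cannot be told apart by direction. The stretches of 250 bases before the starts of Trem1 and Trem2, as RefSeq gives them for GRCm38.p6, are printed because these genes of 1 cluster were called in different tissues below, Trem1 between old and young microglia and Trem2 between old and young cord, where Trem1 was too low to test. Promoters of 5 of the 8 genes were found in the RefSeq table. Capitals mark GAGGAA, the core of the site bound by the myeloid factor PU.1, on either strand (TTCCTC on the other strand). They also mark TGANTCA, a loose pattern for the AP-1 site that allows any middle base and reads the same on both strands. The patterns do not overlap each other in either stretch.
Trem1 (chr17:48232489-48232738, plus strand): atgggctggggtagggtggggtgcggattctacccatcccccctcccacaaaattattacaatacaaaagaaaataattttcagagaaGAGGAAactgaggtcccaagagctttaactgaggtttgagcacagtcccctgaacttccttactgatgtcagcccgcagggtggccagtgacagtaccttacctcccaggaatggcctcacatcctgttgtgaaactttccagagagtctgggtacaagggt
Trem2 (chr17:48346151-48346400, plus strand): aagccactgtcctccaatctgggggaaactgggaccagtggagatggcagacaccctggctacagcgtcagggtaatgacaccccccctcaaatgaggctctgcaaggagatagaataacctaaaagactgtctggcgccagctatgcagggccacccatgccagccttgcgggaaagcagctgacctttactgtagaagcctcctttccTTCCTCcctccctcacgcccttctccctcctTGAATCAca
The Trem1 stretch held 1 PU.1 core, 162 bases before the RefSeq start, and no AP-1 pattern. This stretch ends at 48232738, short of the Trem1 start at 48232768 printed above, which comes from another annotation. The Trem2 stretch held 1 PU.1 core, 40 bases before the start, and 1 AP-1 pattern, 9 bases before it. Of 32851 RefSeq promoters cut to the same length, 23.3% held the PU.1 core and 6.75% held the AP-1 pattern.

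Total counts ran from 18741936 to 34496308 in microglia libraries and from 15909868 to 33004806 in cord libraries. The sorted libraries carried all 15 microglia markers used (such as P2ry12 and Tmem119), with a summed level of 59700 to 90600 CPM, counts relative to library size scaled by the trimmed mean of M values (TMM). Markers of other blood cells were not at 0: the 13 neutrophil markers (such as S100a8 and Ngp) summed to 908, 1470 and 4030 CPM (lowest, median, highest) in old repopulated, 2290, 5080 and 9710 CPM in old and 250, 559 and 1120 CPM in young microglia. The 12 monocyte markers summed to 332 to 786 CPM in old repopulated, 691 to 1540 CPM in old and 146 to 334 CPM in young microglia. In cord, old repopulated replicate 6 stood apart, with 32400 CPM of 10 neural, glial and endothelial markers, against a group median of 19600 CPM, and 1320 CPM of microglia markers, against a median of 793 CPM. The main cord results of Trem2, Tyrobp, Treml2 and Hcst are also given without it.

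Per unit of length, Tyrobp and Trem2 stood far above the other 6 genes in every group. Levels between genes are compared in TPM, counts per gene length scaled to the same total in each library, which the authors deposited. In microglia, Tyrobp averaged 5349 TPM (4624 to 5874) in old repopulated, 4318 ± 493 TPM in old and 3883 ± 248 TPM in young libraries (SD, n = 8 each). Trem2 averaged 2637 ± 251 TPM in old repopulated, 3168 ± 257 TPM in old and 3570 ± 193 TPM in young libraries (SD, n = 8 each). The libraries of these 2 genes did not overlap in the old repopulated group but did in the old and young groups. Hcst followed at means of 41.2, 43.8 and 38.4 TPM in old repopulated, old and young microglia. Treml2 was next in old repopulated microglia (35.2 TPM) and young microglia (9.58 TPM), and its libraries overlapped those of Hcst in the old repopulated group. In old microglia Trem3 (23.8 TPM) and Treml2 (20.6 TPM) came after Hcst with overlapping libraries. Trem1, Treml4 and Treml1 were the lowest 3 genes, at 0.370 to 5.10 TPM by group mean, and genes next to each other in this order overlapped within each group. In cord Tyrobp averaged 205, 166 and 46.0 TPM and Trem2 72.8, 63.9 and 11.5 TPM in old repopulated, old and young libraries, with no overlap between the genes, and the other 6 genes followed at 0.089 to 2.79 TPM.

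The receptor Trem2 did not pass the test between any of the microglia groups, while its cluster neighbour Treml2, a receptor of macrophages, neutrophils and B cells, was higher in old than in young microglia and higher again in old repopulated ones. Trem2 had 1361, 1539 and 1713 CPM (lowest, median, highest) in old repopulated microglia, 1264, 1563 and 1830 CPM in old microglia and 1524, 1633 and 2030 CPM in young microglia. The 3 groups overlapped over most of their range, and the highest library was young replicate 7. The log2 changes of Trem2 were -0.10 ± 0.07 (SE) for old against young, -0.02 ± 0.07 for repopulated against old and -0.12 ± 0.07 for repopulated against young, with edgeR quasi-likelihood adjusted p (Benjamini-Hochberg over 14382 genes) of 0.41, 0.89 and 0.24. This result depended on the scaling. With total-count scaling, under which the median of all genes was -0.21 (log2) for repopulated against old, Trem2 was called lower in repopulated than in old microglia (edgeR log2 change -0.18, adjusted p = 0.039) and than in young microglia (-0.25, adjusted p = 0.0025). On the log2(TPM + 1) scale limma called Trem2 lower in all 3 comparisons, with log2 changes of -0.27 for repopulated against old (adjusted p = 0.0025), -0.44 for repopulated against young (adjusted p = 2.4e-06) and -0.17 for old against young (adjusted p = 0.045). Relative to the median of all genes on that scale, the same 3 differences were -0.05, -0.16 and -0.09.

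Treml2 had 68.0, 89.4 and 94.9 CPM (lowest, median, highest) in old repopulated microglia, 36.2, 40.8 and 50.3 CPM in old microglia and 13.7, 18.6 and 24.03 CPM in young microglia. Every old repopulated library lay above every old one, and every old library above every young one. Treml2 was 2.25-fold higher in old than in young microglia (log2 1.17 ± 0.10, edgeR adjusted p = 3.1e-10), 2.04-fold higher in old repopulated than in old microglia (log2 1.03 ± 0.10, adjusted p = 1.4e-08) and 4.6-fold higher in old repopulated than in young microglia (log2 2.20 ± 0.11, adjusted p = 1.2e-16). In old against young microglia, Treml2 was 1 of 3 of the 8 genes called, all 3 higher and all 3 without overlap between the groups. Over all genes in that comparison 21.7% were called, 11% in the higher direction, and 7.16% did not overlap. The 8 B cell markers summed to medians of 130, 142 and 73 CPM in old repopulated, old and young microglia. Of the 8, 1 was called higher and 1 lower in old against young microglia. In the same order neutrophil markers had medians of 1470, 5080 and 559 CPM and border-associated macrophage markers 1020, 1320 and 1210 CPM. The part of these cells in the values of Treml2 was not tested.

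**Figure D1:**
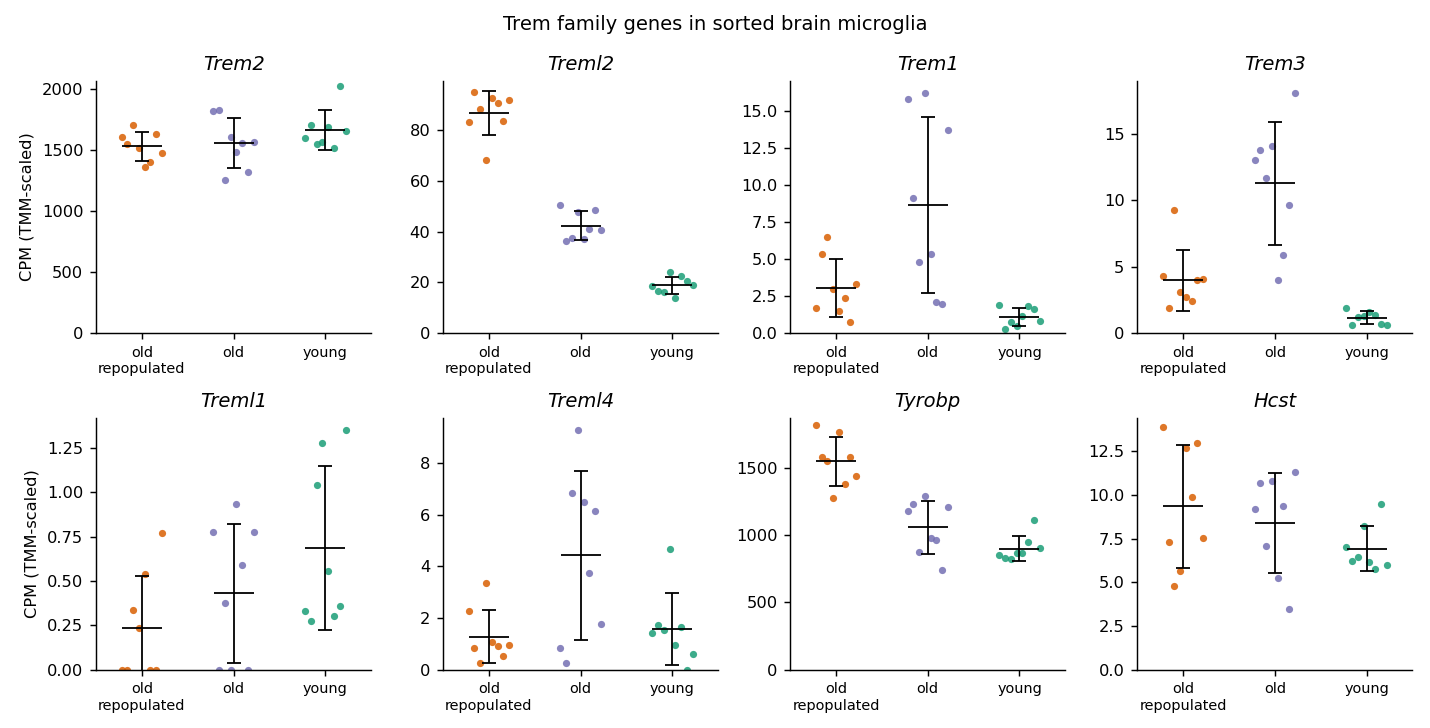
TMM-scaled counts (CPM) of the 8 genes in sorted microglia; each point is 1 of 8 libraries in the old repopulated (orange), old (violet) and young (green) groups, and black lines give the mean and SD. Treml2 averages 86.6 CPM in old repopulated, 42.3 CPM in old and 18.8 CPM in young libraries with no overlap, while the Trem2 groups overlap.

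The adaptor Tyrobp was highest in old repopulated microglia, and the adaptor Hcst did not pass the test in any microglia comparison. Tyrobp had 1282, 1563 and 1819 CPM (lowest, median, highest) in old repopulated microglia, 743, 1079 and 1286 CPM in old microglia and 820, 870 and 1106 CPM in young microglia. The lowest old repopulated library lay just under the highest old one and above all young ones, and the old and young groups overlapped. Tyrobp was 1.46-fold higher in old repopulated than in old microglia (log2 0.55 ± 0.09, edgeR adjusted p = 7.8e-05) and 1.72-fold higher than in young microglia (log2 0.78 ± 0.09, adjusted p = 6.6e-08). Between old and young microglia its log2 change of 0.23 ± 0.09 did not pass (edgeR adjusted p = 0.076). This last value lay near the threshold: it passed with DESeq2 size factors (0.28, edgeR adjusted p = 0.039), with total-count scaling (0.26, edgeR adjusted p = 0.021), with the DESeq2 Wald test (0.28, adjusted p = 0.018), and in edgeR without old replicate 3 (0.28, adjusted p = 0.039), without old replicate 7 (0.30, adjusted p = 0.011) or without young replicate 7 (0.29, adjusted p = 0.028).

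Hcst had 4.79, 8.71 and 13.9 CPM (lowest, median, highest) in old repopulated microglia, 3.50, 9.30 and 11.3 CPM in old microglia and 5.78, 6.34 and 9.49 CPM in young microglia. The 3 groups overlapped. Its log2 changes of 0.28 ± 0.23 for old against young, 0.16 ± 0.23 for repopulated against old and 0.44 ± 0.23 for repopulated against young had edgeR adjusted p of 0.48, 0.72 and 0.17. For repopulated against old the sign turned with total-count scaling (-0.01) and on the log2(TPM + 1) scale (-0.10), neither called. The 12 NK and T cell markers summed to medians of 4.39 CPM in old repopulated, 6.15 CPM in old and 1.55 CPM in young microglia. Old repopulated replicate 1 was highest for these markers (29.4 CPM) and for Hcst. None of 5 tested was called in any microglia comparison, and their part in the values of Hcst was not tested.

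Trem1 and Trem3, receptors that signal through Tyrobp (Trem3 has been studied in mouse macrophages), were both higher in old than in young microglia, and both were lower in old repopulated than in old microglia. Trem1 had 0.724, 2.69 and 6.47 CPM (lowest, median, highest) in old repopulated, 1.99, 7.22 and 16.2 CPM in old and 0.272, 0.980 and 1.88 CPM in young microglia. All old libraries lay above all young ones, by a narrow margin at the lower end, and the old repopulated libraries overlapped both. Trem1 was 7.85-fold higher in old than in young microglia (log2 2.97 ± 0.49, edgeR adjusted p = 2.2e-05). It was 2.82-fold lower in old repopulated than in old microglia (log2 -1.5 ± 0.46, edgeR adjusted p = 0.022) and 2.78-fold higher in old repopulated than in young microglia (log2 1.48 ± 0.47, adjusted p = 0.014). Neither of these last 2 calls held throughout. The fall against old microglia was lost with limma-voom (-1.33, adjusted p = 0.086), and in edgeR without old replicate 1 (-1.30, adjusted p = 0.057) or old replicate 4 (-1.29, adjusted p = 0.058). The rise over young microglia was lost with limma-voom (1.45, adjusted p = 0.17) and with limma on log2(TPM + 1) (0.54, adjusted p = 0.13).

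Trem3 had 1.86, 3.54 and 9.27 CPM (lowest, median, highest) in old repopulated, 3.98, 12.3 and 18.1 CPM in old and 0.578, 1.21 and 1.91 CPM in young microglia. No old library overlapped the young ones, and old repopulated replicate 3 was the highest of its group. Trem3 was 9.80-fold higher in old than in young microglia (log2 3.29 ± 0.35, edgeR adjusted p = 1.5e-08), 2.84-fold lower in old repopulated than in old microglia (log2 -1.51 ± 0.33, adjusted p = 0.0012) and 3.45-fold higher in old repopulated than in young microglia (log2 1.78 ± 0.34, adjusted p = 8.5e-05).

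Neutrophil markers moved with both genes. Of the 13 neutrophil markers, 12 were called higher in old than in young microglia (median log2 change 2.9), 11 were called lower in old repopulated than in old microglia (median -1.6) and 12 were called higher in old repopulated than in young microglia (median 1.5). None of the 13 was at 0 in any group. The monocyte markers moved too: 11 of 12 were called higher in old than in young microglia and 6 of 12 lower in old repopulated than in old microglia. Of 10 markers of border-associated macrophages, 6 were called higher and 1 lower in old against young microglia (median 0.92) and 8 were called lower in old repopulated against old microglia (median -2). Set against the summed neutrophil markers of the same library, a scale chosen after the values were seen, Trem1 had medians of 1.82, 1.44 and 1.59 CPM per 1000 marker CPM in old repopulated, old and young microglia, and Trem3 had medians of 2.40, 2.19 and 1.98. On that scale the 3 groups overlapped for both genes, with Trem1 at 0.797 to 3.33, 0.773 to 2.89 and 1.03 to 4.28 and Trem3 at 1.16 to 4.38, 1.72 to 4.21 and 1 to 3.18 in old repopulated, old and young microglia. Per 1000 CPM of monocyte markers the medians of old libraries stayed the highest: Trem1 had 6.87, 8.77 and 5.5 and Trem3 7.67, 11.6 and 5.03 in old repopulated, old and young microglia, again with overlap. The part of neutrophils, monocytes and macrophages in the results of both genes was not tested.

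**Figure D2:**
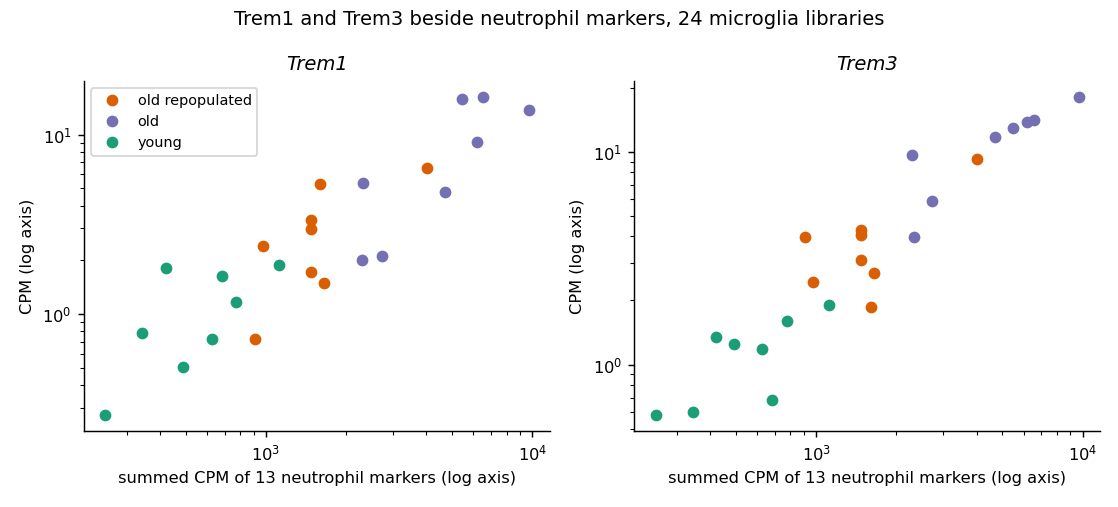
CPM of Trem1 and Trem3 (vertical, log axis) against the summed CPM of 13 neutrophil markers (horizontal, log axis); each point is 1 of 24 microglia libraries. Old libraries (violet) lie at the upper right, with marker sums of 2290 to 9710 CPM, young libraries (green) at the lower left, and old repopulated libraries (orange) in the middle, with overlap; old repopulated replicate 3 is the orange point at 4030 CPM.

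Treml1, known from platelets and megakaryocytes, and Treml4, a receptor of mouse monocytes, macrophages and dendritic cells, did not pass any microglia test in edgeR with TMM scaling, though other settings called some of the changes below. Treml1 was near the detection limit. Treml1 had no read in 4 of 8 old repopulated and 3 of 8 old libraries, and at most 19, 23 and 43 reads in an old repopulated, old or young library. Its group ranges were 0 to 0.772 CPM in old repopulated, 0 to 0.933 CPM in old and 0.272 to 1.35 CPM in young microglia. The log2 changes of -0.66 ± 1.05 for old against young, -0.87 ± 1.07 for repopulated against old and -1.53 ± 1.08 for repopulated against young had edgeR adjusted p of 0.75, 0.65 and 0.31, and the last of them passed with limma-voom (-2.65, adjusted p = 0.047) and with limma on log2(TPM + 1) (-0.76, adjusted p = 0.016). Platelet markers in the same libraries summed to medians of 28.4 CPM in old repopulated, 41.9 CPM in old and 61.3 CPM in young microglia, and 5 of 10 such markers were tested. Of the 5, 1 was called lower in old against young, 1 in old repopulated against old and 2 in old repopulated against young microglia. None was called higher. Their median log2 changes were 0.52, -0.21 and -0.16, so the sum does not stand for each marker. Ppbp was at 0 in all old repopulated libraries and Gp6 in all old and young ones, and the part of platelets in the values of Treml1 was not tested.

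Treml4 had 0.262, 0.943 and 3.34 CPM (lowest, median, highest) in old repopulated, 0.258, 4.95 and 9.29 CPM in old and 0 to 4.67 CPM, with a median of 1.47 CPM, in young microglia. The old libraries were the most spread, with replicates 1 and 2 at 0.852 and 0.258 CPM and replicate 4 at 9.29 CPM, and the groups overlapped. Its log2 changes were 1.497 ± 0.65 for old against young (edgeR adjusted p = 0.11), -1.79 ± 0.66 for repopulated against old (adjusted p = 0.062) and -0.29 ± 0.65 for repopulated against young (adjusted p = 0.79). The first 2 depended on both the method and single libraries. On all libraries the rise passed with DESeq2 (1.55, adjusted p = 0.049), and the fall passed with DESeq2 (-1.80, adjusted p = 0.02), with total-count scaling in edgeR (-1.97, adjusted p = 0.031) and with limma on log2(TPM + 1) (-1.22, adjusted p = 0.021). In edgeR with TMM scaling the rise also passed without young replicate 4 (1.99, adjusted p = 0.034), and the fall passed without old replicate 1 (-1.95, adjusted p = 0.041), old replicate 2 (-1.97, adjusted p = 0.029) or old repopulated replicate 4 (-2.16, adjusted p = 0.026). Of 8 dendritic cell markers 4 were called higher in old against young microglia and 2 lower in old repopulated against old microglia, with the monocyte and macrophage markers above. Their part in the values of Treml4 was not tested.

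In all, 4 of the 8 genes were called in old repopulated against old microglia, Treml2 and Tyrobp higher and Trem1 and Trem3 lower, where 16.2% of all genes were called, 9.05% higher and 7.2% lower. The balance of all calls in this comparison depended on the scaling: 55.7% of them were higher with TMM, 17.6% with total-count scaling and 10.4% on the log2(TPM + 1) scale, and the 4 genes kept their signs under each. Of these, Treml2 alone had no overlap between the groups, against 3.06% of all genes. In old repopulated against young microglia the same 4 genes were called, all higher, where 32.7% of all genes were called, 16.1% in that direction. Treml2 and Tyrobp had no overlap in this comparison, against 13.1% of all genes. The 3 comparisons share groups, so their calls are not independent. Genes of the lists below were tested with TMM scaling only. For old repopulated against old microglia the median of all genes was -0.04 (log2) with TMM and -0.21 with total-count scaling. Small changes of listed genes in that comparison carry this limit.

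**Figure D3:**
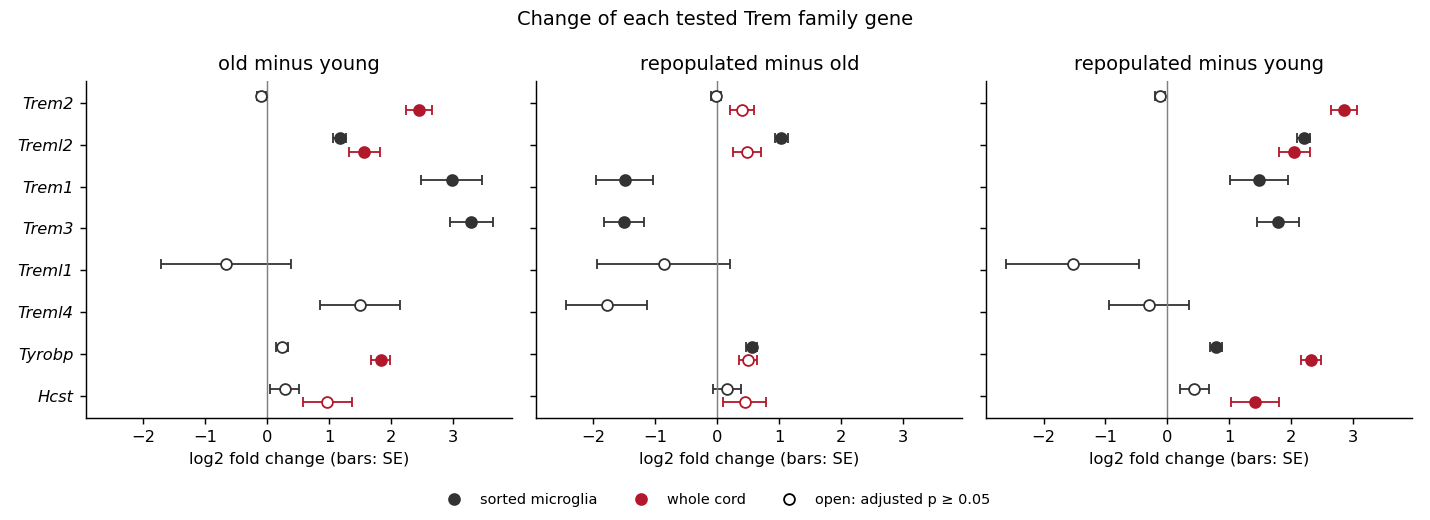
Log2 fold change of each tested gene (horizontal) with its SE for old minus young (left), old repopulated minus old (middle) and old repopulated minus young (right), in sorted microglia (black) and whole cord (red). Filled points have an edgeR adjusted p under 0.05; Trem1, Trem3, Treml1 and Treml4 have no cord point because their counts were too low to test. Trem2 lies near 0 in microglia and at 2.45 and 2.85 in cord against young.

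In whole spinal cord Treml2 was again higher in old than in young mice, and so were Trem2 and Tyrobp, which did not pass in old against young microglia. Cord is bulk tissue, where fewer cells of a type and less RNA per cell cannot be told apart. Of the 8 genes, 4 were too low to test in cord: Trem1, Trem3, Treml1 and Treml4 reached at most 26 reads in any cord library, with group means of 0.121 to 0.358 CPM. For the other 4, Trem2, Treml2 and Tyrobp were called higher in old than in young cord, all 3 without overlap, where 6.15% of all 18271 tested genes were called, 4.88% in that direction, and 3.06% had no overlap. A gene could pass the count filter through the group where it was high, so the 3 of 4 is not a share of the family.

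Trem2 had 24.4, 27.2 and 74.6 CPM (lowest, median, highest) in old repopulated cord, 20.4, 25.4 and 28.7 CPM in old cord and 2.92, 4.80 and 6.12 CPM in young cord. All old and old repopulated libraries lay above all young ones, and old repopulated replicate 6 lay far above its group, where the next library had 35.1 CPM. Trem2 was 5.46-fold higher in old than in young cord (log2 2.45 ± 0.21, edgeR adjusted p = 8.8e-09) and 7.22-fold higher in old repopulated than in young cord (log2 2.85 ± 0.21, adjusted p = 5.6e-10). Without old repopulated replicate 6 the second change was 2.58 (edgeR adjusted p = 7.8e-13). On the TPM scale that library had 97.1 TPM and the other 7 of its group 62.1 to 85.6 TPM, a smaller gap.

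Tyrobp had 33.9, 38.9 and 90.5 CPM (lowest, median, highest) in old repopulated cord, 27.2, 33.2 and 37.2 CPM in old cord and 8.04, 9.03 and 11.4 CPM in young cord. The young libraries again lay below all others, and old repopulated replicate 6 was again the highest. Tyrobp was 3.55-fold higher in old than in young cord (log2 1.83 ± 0.16, edgeR adjusted p = 7.4e-09) and 4.99-fold higher in old repopulated than in young cord (log2 2.32 ± 0.16, adjusted p = 1.1e-10). Without old repopulated replicate 6 the second change was 2.11 (edgeR adjusted p = 1.9e-14).

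Treml2 had 1.56, 2.34 and 3.18 CPM (lowest, median, highest) in old repopulated cord, 1.05, 1.70 and 2.35 CPM in old cord and 0.127, 0.582 and 0.873 CPM in young cord. These rest on 39 to 90, 24 to 69 and 3 to 23 reads a library, and no young library reached the old ones. Treml2 was 2.96-fold higher in old than in young cord (log2 1.57 ± 0.25, edgeR adjusted p = 0.00011) and 4.14-fold higher in old repopulated than in young cord (log2 2.05 ± 0.25, adjusted p = 1.5e-06). Hcst had 0.249, 0.425 and 1.19 CPM in old repopulated, 0.0877, 0.407 and 0.596 CPM in old and 0.0738, 0.210 and 0.276 CPM in young cord, from 2 to 19 reads a library. It did not pass in old against young cord (log2 0.97 ± 0.40, edgeR adjusted p = 0.21) and was higher in old repopulated than in young cord (log2 1.41 ± 0.39, adjusted p = 0.020; 1.17 and adjusted p = 0.034 without replicate 6), with overlapping groups. All 4 tested genes were thus called higher in old repopulated against young cord, where 10.1% of all genes were called, 7.28% in that direction. Of the 4, 3 had no overlap, against 3.61% of all genes. Hcst had at most 7 reads in a young cord library, and the count filter used a minimum count of 10. A gene could pass through the group where it was high, so the 4 of 4 is again not a share of the family. Of 3 tested NK and T cell markers, 1 was called higher in old and 2 in old repopulated against young cord. All 12 such markers summed to medians of 3.78 CPM in old repopulated, 3.57 CPM in old and 1.79 CPM in young cord. The part of these cells in the values of Hcst was not tested.

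**Figure D4:**
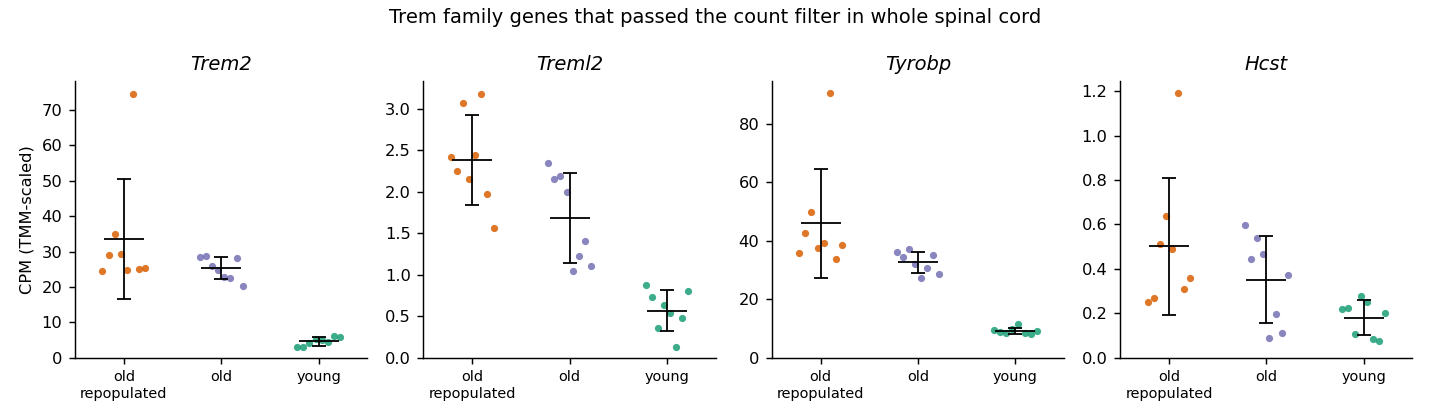
TMM-scaled CPM of the 4 genes tested in whole spinal cord; each point is 1 of 8 libraries in the old repopulated (orange), old (violet) and young (green) groups, and black lines give the mean and SD. Young libraries lie below the others for Trem2, Treml2 and Tyrobp, and old repopulated replicate 6 is the highest point for Trem2 (74.6 CPM), Tyrobp (90.5 CPM) and Hcst (1.19 CPM).

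Between old repopulated and old cord none of the 4 genes passed, where 0.148% of all genes were called, all of them higher. The log2 changes were 0.40 ± 0.19 for Trem2, 0.48 ± 0.23 for Treml2, 0.49 ± 0.15 for Tyrobp and 0.44 ± 0.35 for Hcst, with edgeR adjusted p of 0.68, 0.68, 0.39 and 0.69. Unadjusted edgeR p-values were 0.049 for Trem2, 0.042 for Treml2 and 0.0029 for Tyrobp, so 3 genes were under 0.05 without adjustment. Neither DESeq2, limma-voom nor limma on log2(TPM + 1) called any. Without old repopulated replicate 6 the change of Trem2 was 0.13 and that of Tyrobp 0.28 (edgeR adjusted p = 1.0 and 0.33).

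Microglia markers also moved with age in cord. The 15 markers summed to 699, 793 and 1320 CPM (lowest, median, highest) in old repopulated, 607, 686 and 787 CPM in old and 342, 373 and 476 CPM in young cord. Of the 15, 10 were called higher in old than in young cord (median log2 change 0.77) and 12 in old repopulated than in young cord (median 0.89). None of 13 neutrophil and none of 11 tested monocyte markers was called in old against young cord, with median log2 changes of 0.55 and 0.23. The neutrophil markers summed to medians of 160 CPM in old and 92.9 CPM in young cord, with overlap. Of 9 tested border-associated macrophage markers 3 were called higher and none lower in old against young cord (median -0.12). All 10 such markers summed to 61.8 to 97.6 CPM in old and 43.1 to 66.2 CPM in young cord. Called higher were also 1 of 7 B cell, 1 of 6 dendritic cell, 1 of 6 platelet and 1 of 3 NK and T cell markers. The part of these cells in the cord results was not tested.

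Set against the summed microglia markers of the same library, Trem2 and Tyrobp were still higher in old than in young cord. Trem2 had 37.4 ± 8.28 CPM per 1000 CPM of microglia markers in old repopulated, 36.8 ± 2.03 in old and 12 ± 2.82 in young cord (SD, n = 8 each). No young library reached the others. The difference in log2 was 1.64 for old against young and 1.65 for old repopulated against young (2-sided exact permutation test, p = 0.00016 for each, the smallest that 8 against 8 allows), and the second was 1.56 without old repopulated replicate 6. Tyrobp had 52.1 ± 7.01 CPM per 1000 marker CPM in old repopulated, 47.7 ± 3.09 in old and 24.1 ± 2.01 in young cord (SD, n = 8 each), again with no overlap of young with the others. Its log2 differences were 0.99 for old against young and 1.11 for old repopulated against young (exact permutation p = 0.00016 for each). With a sum of 5 of the 15 markers the differences were smaller, 1.13 and 1.05 for Trem2 and 0.47 and 0.51 for Tyrobp (exact permutation p = 0.00016 for each). These p-values are unadjusted over 12 tests of this kind. In sorted microglia the marker sum was itself lower in old than in young libraries (medians of 65800 and 85000 CPM). There the same scale gave medians of 21.4, 24.2 and 19.1 for Trem2 in old repopulated, old and young libraries. For Tyrobp they were 20.8, 15.3 and 10.3. The part of a change in the markers themselves in the cord differences was not tested.

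On the same scale Treml2 averaged 2.78 in old repopulated, 2.43 in old and 1.51 in young cord, with log2 differences of 0.85 for old against young (exact permutation p = 0.017) and 1.07 for old repopulated against young (exact permutation p = 0.00062). Both calls were lost with the sum of 5 markers (0.33 and 0.48, exact permutation p = 0.37 and 0.14). Hcst averaged 0.557, 0.504 and 0.467 in old repopulated, old and young cord, and its old against young difference of -0.01 had an exact permutation p of 0.99. Between old repopulated and old cord the log2 difference was 0.0015 for Trem2, 0.12 for Tyrobp, 0.23 for Treml2 and 0.31 for Hcst (exact permutation p = 0.99, 0.078, 0.16 and 0.47), and -0.09, 0.06, 0.25 and 0.19 without old repopulated replicate 6 (exact permutation p = 0.14, 0.16, 0.15 and 0.65). For Tyrobp this p fell under the threshold without old replicate 3 (0.15, exact permutation p = 0.020) or old repopulated replicate 5 (0.14, exact permutation p = 0.04).

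The balance of the receptor Trem2 to its adaptor Tyrobp, taken as the ratio of their TPM in each library, was highest in young libraries in microglia and had its lowest mean in young libraries in cord. In microglia the ratio was 0.497 ± 0.064 (range 0.382 to 0.591) in old repopulated, 0.740 ± 0.084 (0.620 to 0.882) in old and 0.922 ± 0.063 (0.798 to 1.02) in young libraries (SD, n = 8 each). The old repopulated libraries did not overlap the old ones, while old and young overlapped. In cord it was 0.354 ± 0.033 in old repopulated, 0.384 ± 0.027 in old and 0.252 ± 0.074 in young libraries (SD, n = 8 each), with overlap. The ratio was not tested.

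**Figure D5:**
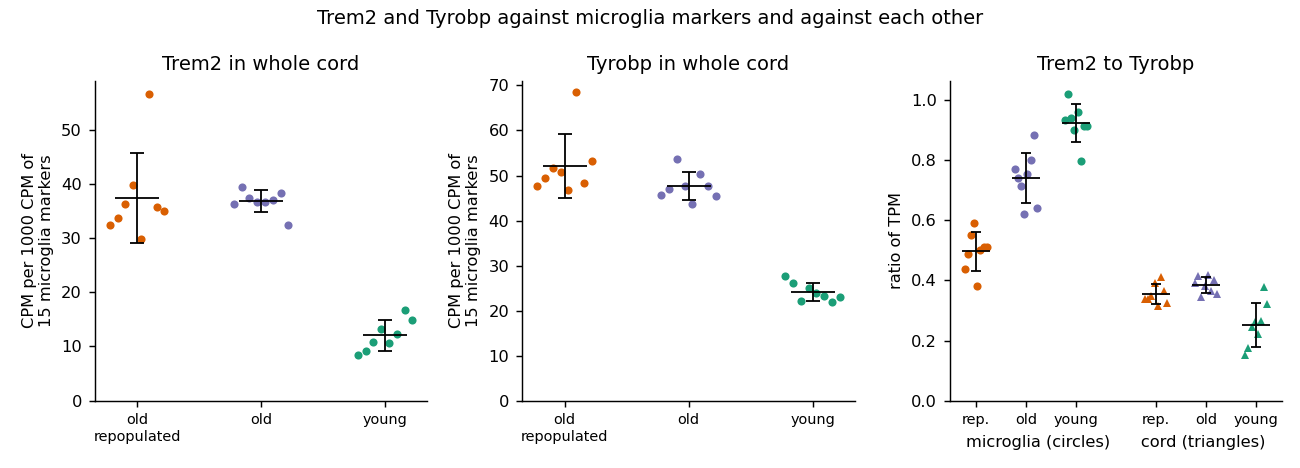
Trem2 (left) and Tyrobp (middle) in whole cord as CPM per 1000 CPM of 15 summed microglia markers, and the ratio of Trem2 to Tyrobp TPM (right) in microglia (circles) and cord (triangles); each point is 1 of 8 libraries in the old repopulated (orange), old (violet) and young (green) groups, with mean and SD. Young cord lies at 12 for Trem2 and 24.1 for Tyrobp, below all other libraries, and the microglia ratio is lowest in old repopulated libraries (0.497).

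The change with age differed between sorted microglia and whole cord for Trem2 and Tyrobp. In a fit over all 48 libraries, the change of Trem2 in microglia minus that in cord was -2.71 ± 0.22 (log2) for old against young and -3.16 ± 0.22 for old repopulated against young (edgeR adjusted p = 2.5e-13 and 1.1e-15). For Tyrobp the same differences were -1.75 ± 0.18 and -1.73 ± 0.18 (edgeR adjusted p = 2.4e-10 and 1.9e-10). In this fit the median of all genes was -0.15 for old against young and -0.27 for old repopulated against young, and relative to it Trem2 was at -2.56 and -2.89 and Tyrobp at -1.60 and -1.46. Without cord old repopulated replicate 6 the old repopulated against young differences were -2.68 for Trem2 and -1.30 for Tyrobp. Both genes were called with the same sign in these 2 comparisons under every setting and every left-out library tried. All 15 microglia markers were called with a negative difference in both comparisons too (median -1.2 for old against young and -1.4 for old repopulated against young). Their part in the results of Trem2 and Tyrobp was not tested.

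Trem3 was called for old against young (1.84 ± 0.64, edgeR adjusted p = 0.034), and Treml1 (-2.91 ± 1.06, adjusted p = 0.033) and Hcst (-1.18 ± 0.45, adjusted p = 0.042) for old repopulated against young. These 3 rest on few reads in cord or microglia, and leaving out 1 library ended the call of Trem3 in 5 of 32 cases, of Treml1 in 7 of 32 and of Hcst in 14 of 32. For Trem3 these were old microglia replicate 8, old cord replicates 3 and 5 and young cord replicates 2 and 8. For Treml1 they were young microglia replicates 4 and 8, young cord replicates 4, 5, 6 and 7 and cord old repopulated replicate 6. For Hcst they were old repopulated microglia replicates 2, 3, 4 and 8, young microglia replicates 1, 4 and 7, cord old repopulated replicates 3, 4, 5 and 6 and young cord replicates 3, 6 and 7. On all libraries Trem3 was not called with limma-voom (1.67, adjusted p = 0.12), and Treml1 was not called in edgeR with DESeq2 size factors (-2.71, adjusted p = 0.057) or with no count filter (-2.71, adjusted p = 0.084). Hcst was not called with either of these (-0.98 and -0.97, edgeR adjusted p = 0.11 and 0.16), with DESeq2 (-0.999, adjusted p = 0.09), with limma-voom (-1.19, adjusted p = 0.093) or with limma on log2(TPM + 1) (-0.78, adjusted p = 0.065). Without cord old repopulated replicate 6 the difference of Hcst was -0.70 (edgeR adjusted p = 0.26) and that of Treml1 -2.65 (adjusted p = 0.069), and without cord young replicate 2 that of Trem3 was 1.55 (adjusted p = 0.10). All 8 members passed the count filter of this fit, though Trem1, Trem3, Treml1 and Treml4 were too low to test in cord alone. A gene could pass through microglia, so the counts that follow are not a share of the family. In all, 3 of 8 members were called for old against young, where 20.5% of all genes were, 5.44% with a positive difference and 15% with a negative one. For old repopulated against young 4 of 8 were called, all negative, where 29.6% of all genes were, 6.11% positive and 23.5% negative. For old repopulated against old no member was called in edgeR, where 11% of all genes were, 3.49% positive and 7.54% negative; 2 had an unadjusted edgeR p under 0.05 (0.038 for Trem2, 0.026 for Treml2). DESeq2 called Treml2 (0.57, adjusted p = 0.044), total-count scaling called Trem2 (-0.55, adjusted p = 0.049), limma on log2(TPM + 1) called 4 members, and edgeR called Treml2 without cord old repopulated replicate 6 (0.65, adjusted p = 0.049).

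All members but Treml1 and Treml4 were higher in sorted microglia than in cord, without overlap, in the old repopulated and old groups. In young samples the libraries of Trem1 also overlapped. The share of all genes that separate microglia from cord libraries was not computed, so this is not read as particular to the family. The ratio of mean TPM in microglia to that in cord was 36.2 for Trem2 in old repopulated, 49.6 in old and 311 in young samples. For Tyrobp it was 26.1, 25.9 and 84.4, and for Treml2 27.1, 20.3 and 28.8. Hcst had ratios of 14.8, 19.0 and 33.4 and Trem3 of 11.2, 25.2 and 7.00 in old repopulated, old and young samples, with no overlap between microglia and cord libraries. The microglia came from brain and the cord libraries from spinal cord, so region and sorting cannot be told apart here.

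The genes most like Trem2, Tyrobp and Hcst across the 24 libraries of a tissue were taken by the smallest root mean square (RMS) difference of centred log2 CPM. In microglia these were Ppp1r18, Elovl1 and Cdipt for Trem2 (RMS 0.076 to 0.095, against a median of 0.32 over 9336 genes) and Edf1, Ssr4 and Ptms for Tyrobp (0.096 to 0.10, median 0.50). For Hcst in microglia they were Timm10b, Gpx4 and Atp5g1 (0.27 to 0.30, median 0.59). In cord they were Cd68, Mpeg1 and Tyrobp for Trem2 (0.27 to 0.38, median 1.3 over 12196 genes), and the complement genes C1qc, C1qa and C1qb for Tyrobp (0.12 to 0.16, median 1.0). Hcst in cord was nearest to Rac2, Cyba and Cd37 (0.49 to 0.53, median 0.88). The libraries share their groups and their scaling, so these are descriptions.

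Among the reported ligands of the receptors, Lgals3 and Apoe were higher in both tissues of old mice. Of 10 genes 9 were tested in microglia. Of these 3 were called higher and 1 lower in old against young microglia, where 11% of all genes were called higher and 10.7% lower, and the median log2 change was 0.19, against -0.01 over all genes tested. Lgals3, which encodes galectin-3, averaged 125 ± 37.8 CPM in old and 16.2 ± 4.56 CPM in young microglia (log2 2.95 ± 0.19, edgeR adjusted p = 4.6e-13). Apoe, the lipid carrier bound by Trem2, averaged 5180 ± 1570 CPM in old and 1310 ± 284 CPM in young microglia (log2 1.98 ± 0.17, edgeR adjusted p = 1.9e-10). Pglyrp1, a ligand of Trem1 made by neutrophils, averaged 51.1 ± 24.6 CPM in old and 7.94 ± 3.68 CPM in young microglia (log2 2.69 ± 0.31, edgeR adjusted p = 4.9e-08), and 17.4 ± 7.09 CPM in old repopulated microglia, lower than in old ones (log2 -1.56 ± 0.29, adjusted p = 0.00025); it moved with the neutrophil markers above. Cd276, reported as a ligand of Treml2, was lower in old repopulated (36.4 ± 9.57 CPM) than in old microglia (51.1 ± 8.70 CPM; log2 -0.49 ± 0.13, edgeR adjusted p = 0.0079) and lower in both than in young microglia (70.9 ± 7.63 CPM; log2 -0.96 and -0.47, adjusted p = 5e-07 and 0.0067). In old repopulated against old microglia 2 of the 9 were called higher and 3 lower (9.05% and 7.2% of all genes), and in old repopulated against young microglia 5 were called higher and 1 lower (16.1% and 16.5% of all genes). In old against young cord 2 of 9 tested were called, both higher, where 4.88% of all genes were: Lgals3 (38.0 ± 7.37 CPM in old, 5.56 ± 2.62 CPM in young; log2 2.77 ± 0.24, edgeR adjusted p = 7.4e-09) and Apoe (2050 ± 148 CPM in old, 1320 ± 109 CPM in young; log2 0.63 ± 0.17, adjusted p = 0.022). In old repopulated against young cord 3 were called higher and 1 lower (7.28% and 2.78% of all genes). In old repopulated against old cord none was called, where 0.148% of all genes were. Of the ligands of Klrk1, the partner of Hcst on lymphocytes, 2 of 8 listed genes were tested in microglia, none in cord, and none was called.

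Among genes listed as other receptors linked to Tyrobp or Hcst, Cd300lb and Cd300ld rose in old against young microglia while Siglech and Csf1r fell. The list is broad, and direct pairing with these adaptors is not claimed for each gene, such as Cd300ld and Csf1r. Of 15 tested in microglia, 6 were called higher and 2 lower in old against young microglia (median log2 change 1.8; 11% and 10.7% of all genes). Neutrophil and monocyte markers moved in the same directions as Cd300lb and Cd300ld in old against young and in old repopulated against old microglia. Siglech and Csf1r are themselves 2 of the 15 microglia markers, of which 10 were called lower in old against young microglia. The part of these cells was not tested. Cd300lb averaged 21.2 ± 5.48 CPM in old and 4.34 ± 1.11 CPM in young microglia (log2 2.29 ± 0.20, edgeR adjusted p = 2.8e-10), and Cd300ld 19.8 ± 6.86 CPM in old and 3.93 ± 1.49 CPM in young microglia (log2 2.33 ± 0.29, adjusted p = 2.1e-07). Siglech, a microglial lectin that signals through Tyrobp, averaged 837 ± 70.7 CPM in old and 1290 ± 53.5 CPM in young microglia (log2 -0.62 ± 0.06, edgeR adjusted p = 1.8e-09). In old repopulated against old microglia 3 of the 15 were called higher and 5 lower (9.05% and 7.2% of all genes), with Cd300lb at 11.5 ± 3.59 CPM in old repopulated microglia (log2 -0.88 ± 0.19 against old, edgeR adjusted p = 0.0013) and Cd33 at 402 ± 38.4 CPM in old repopulated and 322 ± 42.5 CPM in old microglia (log2 0.32 ± 0.07, adjusted p = 0.0020). Against young microglia 4 were called higher and 2 lower in old repopulated ones (16.1% and 16.5% of all genes). In cord 7 of 11 tested were called higher and none lower in old against young and again in old repopulated against young (median log2 changes 0.89 and 1.1). Of all genes 4.88% and 7.28% were called higher. None of the 11 was called in old repopulated against old cord, where 0.148% of all genes were. Fcer1g, an adaptor with the same kind of signalling motif as Tyrobp, was higher in old repopulated (1180 ± 209 CPM) than in old microglia (927 ± 171 CPM; log2 0.35 ± 0.10, edgeR adjusted p = 0.017), and higher in old than in young microglia (743 ± 77.4 CPM; log2 0.32 ± 0.10, adjusted p = 0.025).

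Of the signalling genes downstream of Trem2 and Tyrobp, 26 were tested in microglia, and more were called lower than higher against young. In old against young microglia 2 of 26 were called higher, 12 lower and 12 neither (median log2 change -0.19; 11% and 10.7% of all genes were called higher and lower), and in old repopulated against young microglia 3 were called higher and 11 lower (16.1% and 16.5% of all genes). Microglia markers were lower too: 10 of 15 were called lower in old against young microglia (median -0.46), with summed medians of 65800 CPM in old and 85000 CPM in young microglia. Their part in the signalling counts was not tested. Syk, the kinase that binds phosphorylated Tyrobp, averaged 239 ± 26.2 CPM in old repopulated, 228 ± 25.1 CPM in old and 354 ± 19.0 CPM in young microglia (log2 -0.57 ± 0.07 for old repopulated and -0.63 ± 0.07 for old against young, edgeR adjusted p = 1.8e-07 and 5.1e-08). Inpp5d, a phosphatase that restrains this signalling, averaged 1070 ± 93.0 CPM in old repopulated, 1030 ± 89.4 CPM in old and 1490 ± 89.9 CPM in young microglia (log2 -0.48 ± 0.06 and -0.53 ± 0.06 against young, edgeR adjusted p = 2.7e-07 and 1.2e-07). The genes called higher in old microglia were Fgr, a Src-family kinase (69.8 ± 11.1 CPM in old, 12.5 ± 2.88 CPM in young; log2 2.48 ± 0.13, edgeR adjusted p = 7.1e-16), and Lat2, a docking protein (174 ± 16 CPM in old, 113 ± 7.84 CPM in young; log2 0.63 ± 0.07, adjusted p = 3.1e-08). In old repopulated against old microglia 3 were called higher and 3 lower (9.05% and 7.2% of all genes).

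In cord 14 of 27 tested signalling genes were called higher and none lower in old against young (median log2 change 0.49), and 14 were called higher in old repopulated against young (median 0.64), where 4.88% and 7.28% of all genes were called higher. Inpp5d averaged 19.9 ± 1.97 CPM in old repopulated, 18.0 ± 2.40 CPM in old and 9.82 ± 1.74 CPM in young cord (log2 1.02 ± 0.10 and 0.87 ± 0.10 against young, edgeR adjusted p = 4.4e-08 and 6.7e-07). Vav1, an exchange factor downstream of Syk, averaged 7.75 ± 1.22 CPM in old and 3.54 ± 0.905 CPM in young cord (log2 1.13 ± 0.14, edgeR adjusted p = 4.0e-06). The difference between the tissues was called for 18 of 27 of these genes for old against young, 17 of them lower in microglia than in cord, where 15% of all genes were. These counts move with the microglia markers of cord given above, and the part of cell number was not tested. None of the 27 was called in old repopulated against old cord, where 0.148% of all genes were.

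Of the proteases that cut Trem2 from the surface or cut the remaining stub, 9 were tested in each tissue, with TMM scaling only. In old repopulated against old microglia 4 were called higher and 1 lower (9.05% and 7.2% of all genes), among the higher ones Adam10 (log2 0.39 ± 0.07, edgeR adjusted p = 0.00031) and Adam17 (364 ± 26.0 CPM in old repopulated, 278 ± 30.5 CPM in old; log2 0.39 ± 0.06, adjusted p = 3.7e-05), the 2 sheddases. In old against young microglia 3 were called higher and 2 lower (11% and 10.7% of all genes), with Adam17 lower (317 ± 13.6 CPM in young; log2 -0.19 ± 0.06, edgeR adjusted p = 0.028) and Psen2, a catalytic subunit of gamma-secretase, higher (38.5 ± 5.81 CPM in old, 26 ± 2.5 CPM in young; log2 0.57 ± 0.10, adjusted p = 8.6e-05). None of the 9 was called in any cord comparison. Of all genes 6.15% were called in old against young, 0.148% in old repopulated against old and 10.1% in old repopulated against young cord. The list is too short to read this as a lack of change.

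Genes of the stage of disease-associated microglia that depends on Trem2 in mouse models were higher in old microglia although Trem2 itself did not pass. Of 15 genes 13 were called higher and none lower in old against young microglia (median log2 change 1.1), where 11% of all genes were called higher. Spp1, encoding osteopontin, averaged 371 ± 66.3 CPM in old and 5.81 ± 1.97 CPM in young microglia (log2 5.99 ± 0.20, edgeR adjusted p = 3.5e-20), and Clec7a, a lectin receptor, 329 ± 38.1 CPM in old and 37.9 ± 7.05 CPM in young microglia (log2 3.12 ± 0.11, adjusted p = 1.3e-19). Old repopulated microglia had 13 called higher and 1 lower against young (16.1% and 16.5% of all genes), and 2 higher and 2 lower against old (9.05% and 7.2% of all genes). Axl, a receptor kinase, was higher in old repopulated (1240 ± 247 CPM) than in old microglia (523 ± 28.4 CPM; log2 1.24 ± 0.10, edgeR adjusted p = 3.4e-10), and Lpl, the lipoprotein lipase, was lower (208 ± 36.8 CPM against 324 ± 42.4 CPM; log2 -0.64 ± 0.10, adjusted p = 1.5e-05). Of the 9 genes of the stage that does not depend on Trem2, 7 were called higher in old against young microglia, 5 higher and 1 lower in old repopulated against old microglia, and 8 higher in old repopulated against young microglia. H2-D1, a class I antigen-presenting chain, averaged 3990 ± 599 CPM in old repopulated and 1890 ± 296 CPM in old microglia (log2 1.08 ± 0.11, edgeR adjusted p = 2.3e-08). In cord 10 of 15 and 6 of 9 genes of the 2 stages were called higher in old against young, and 11 and 7 in old repopulated against young. None was called lower in either, and 4.88% and 7.28% of all genes were called higher. None was called in old repopulated against old cord, where 0.148% of all genes were. Itgax, an integrin chain, averaged 13 ± 2.97 CPM in old and 0.668 ± 0.375 CPM in young cord (log2 4.28 ± 0.23, edgeR adjusted p = 1.5e-12). In old against young microglia 12 of 13 neutrophil and 11 of 12 monocyte markers were also called higher. Of 10 border-associated macrophage markers 6 were called higher and 1 lower. In old against young cord 10 of 15 microglia markers were called higher. The part of these cells in the counts of both stages was not tested.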

How the data were processed

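PolyA RNA of 48 libraries, 8 in each of 6 groups, was analysed from the counts per gene and the length-scaled values (TPM) that the authors deposited. Per the labels' protocols, libraries were made with a TruSeq kit. STAR 2.5.2b and the build GRCm38.p5 are named in the submitters' processing notes, and the counting program was not stated. The deposited TPM equal the deposited counts divided by gene length and rescaled. Groups were taken from the sample titles. No pair of libraries of a group agreed within sampling noise.

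Counts were tested with edgeR 4.0.16 (TMM scaling, quasi-likelihood test, filterByExpr with a minimum count of 10 and minimum total of 15) in R 4.3.3, separately in the 24 libraries of each tissue, and over all 48 for the difference between tissues. P-values were adjusted by Benjamini-Hochberg over all genes tested, with a threshold of 0.05. Errors of log2 changes are SE from the fit. Levels per microglia marker were compared by exact permutation over libraries.

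Alternatives were DESeq2 1.42.0, limma-voom and limma 3.58.1 on log2(TPM + 1), other scalings and filters, a replicate block and leaving out each library. The 8 genes and all gene lists were chosen with earlier results of these data known. In each list and comparison, the text names genes from the 4 called with the lowest adjusted p and a mean of at least 5 CPM. Total counts set the precision, and low counts limit Trem1, Trem3, Treml1, Treml4 and, in cord, Hcst.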

Additional observations from a re-analysis of the deposited data

Results flagged for a closer look

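In 9 of 48 groups of 8 libraries checked, 1 library of a gene lay far from the other 7 by Dixon's criterion, which chance meets in about 1 in 20 groups. Cord old repopulated replicate 6 was the highest of its group for Trem2 (74.6 CPM, next 35.1 CPM), Tyrobp (90.5 CPM, next 49.9 CPM) and Hcst (1.19 CPM, next 0.638 CPM). Young microglia replicate 7 was the highest of its group for Trem2 (2030 CPM, next 1710 CPM) and Tyrobp (1110 CPM, next 950 CPM), and its summed microglia markers were also the highest, at 90600 CPM. Old repopulated microglia replicate 3 was highest for Trem3 (9.27 CPM, next 4.27 CPM) and for the neutrophil markers (4030 CPM). Old repopulated microglia replicate 4 was the lowest for Treml2 (68.0 CPM, next 83.1 CPM). Young microglia replicate 4 was highest for Treml4 (4.67 CPM, next 1.73 CPM), and old cord replicate 1 for Trem3 (0.795 CPM, next 0.443 CPM).

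The change in microglia differed from that in cord, by the edgeR test of the difference itself, for Trem2 (log2 -2.71 for old against young, -3.16 for old repopulated against young) and Tyrobp (-1.75 and -1.73). Also called were Trem3 (1.84 for old against young), Treml1 (-2.91 for old repopulated against young) and Hcst (-1.18 for old repopulated against young). These last calls were lost under some settings and some left-out libraries. Trem3 and Treml1 were too low to test in cord alone.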

How the results depend on the processing

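Of 526 results of single genes under other tools, scalings and filters, 486 kept their direction and side of the threshold, 23 gained and 15 lost the call, and 2 reversed. Both reversed values were Treml2 differences between tissues on the log2(TPM + 1) scale: 0.45 for old against young (-0.56 in edgeR) and 1.0 for old repopulated against young (-0.04 in edgeR). The cause was not tested. The count of the 8 genes called was 5 with DESeq2 in old against young microglia (3 in edgeR). For the difference between tissues it was 5 on the TPM scale for old against young (3), 1 with total-count scaling, 1 with DESeq2 and 4 on the TPM scale for old repopulated against old (0), and 2 with DESeq2 size factors and 2 without a count filter for old repopulated against young (4). With 5 markers the Treml2 difference per marker in cord was 0.333 for old and 0.478 for old repopulated against young.

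Leaving out 1 library, counts ranged from 3 to 4, 3 to 5 and 4 to 4 in microglia, 3 to 3, 0 to 0 and 4 to 5 in cord, and 2 to 3, 0 to 1 and 2 to 4 between tissues (old against young, old repopulated against old, old repopulated against young). Tyrobp per marker in old repopulated against old cord ranged from 0.0629 to 0.146.

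Same-numbered libraries did not deviate together (correlations from -0.495 to 0.436, at most 4 of 8 pairs above 0.1), so the numbers were not taken to pair samples. With a replicate block the counts were 3, 3 and 3 in microglia, 3, 0 and 4 in cord, and 2, 0 and 3 between tissues. The block left uncalled Trem1 in old repopulated against old (-1.42, edgeR adjusted p = 0.063) and against young microglia (1.27, adjusted p = 0.077), and, between tissues, Trem3 for old against young (1.83, adjusted p = 0.067) and Hcst for old repopulated against young (-1.21, adjusted p = 0.057). With sign flips within same-numbered libraries, a paired test, Tyrobp per marker in old repopulated against old cord was 0.121 (exact sign-flip p = 0.023).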
